A study of Mus musculus with 6 samples.

Results

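Pericentral sinusoidal endothelial cells line the liver capillaries where they drain into the central vein. They release Wnt2, a Wnt ligand, and Rspo3, an R-spondin that strengthens the response of neighbouring cells to Wnt, and these signals keep the hepatocytes around the central vein in their pericentral state. Cells of the same sinusoids on the portal side carry Notch and ephrin ligands such as Dll4 and Efnb2. The zones blend into each other along the sinusoid, so a cut on a marker takes a range of a gradient.

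The cells described here were chosen by their own counts of unique molecular identifiers (UMIs, counted transcripts). A cell had under 5000 genes and under 5% mitochondrial UMIs, at least 4 UMIs summed over the endothelial genes Stab2, Kdr, Clec4g and Ptprb, and more of these than of the macrophage genes C1qa, C1qb and C1qc. It also had at least 2 UMIs of Wnt2 and Rspo3 together and at most 1 UMI of Vwf, a gene of larger vessels. This selected 1224 pericentral cells among 33168 deposited barcodes, 27544 cells after the filter and 8405 sinusoidal endothelial cells in the gate. The gate left 5845 cells with 0 UMIs of Wnt2 and Rspo3, called other sinusoidal cells below, and 1336 cells with 1 UMI, which entered neither class.

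The libraries hold liver non-parenchymal cells of male C57BL/6J mice with diet-induced nonalcoholic steatohepatitis (NASH), 3 libraries from the vehicle group and 3 from the ginkgetin group. All mice were aged 8 weeks at the start and ate a high-fat diet for 24 weeks. Over the last 8 weeks they received DMSO vehicle or ginkgetin, a plant biflavone, at 10 mg/kg/day by gavage. Both groups therefore share the diet, and chow-fed mice were not analysed here. The methods give n = 3 per group and do not say whether a library held cells of a single mouse or of a pool.

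The pericentral cells numbered 124, 56 and 46 in vehicle replicates 1 to 3 and 165, 421 and 412 in ginkgetin replicates 1 to 3, or 226 against 998 in all. The libraries held 13128697 to 61796882 UMIs. The summed UMIs of the pericentral cells ran from 162591 in vehicle replicate 2 to 3455759 in ginkgetin replicate 3, so vehicle values rest on fewer cells. Replicate 3 of both groups stood apart from replicates 1 and 2. Median UMIs per pericentral cell were 8310 and 8139 in vehicle and ginkgetin replicate 3, against 2557 to 3132.5 in the other 4 libraries. Libraries of the replicate 1 and 2 set shared at most 1 barcode with those of replicate 3, libraries within a set shared 10 to 85, and no barcode of a pericentral cell was shared between libraries. Results below are given with the replicate number as a block where that changes the call.

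The endothelial label was checked against markers: all 8 endothelial markers were detected and summed to 3964 to 7784 CPM (the UMI count scaled to a fixed total for each class and library). The 8 vascular markers summed to 537 to 932 CPM and were lower in the pericentral than in the other sinusoidal cells in all 6 libraries. Of 4 lymphatic markers, Ccl21a was at 0 and the list summed to at most 6.17 CPM. RNA of other cell types was present. The share of pericentral cells with 2 or more UMIs of other cell types' markers was 46.8%, 23.2% and 69.6% in vehicle (32 of 46 cells in replicate 3) and 9.09%, 56.5% and 52.2% in ginkgetin replicates 1 to 3. These markers were the macrophage, stellate, T or NK cell and B or plasma cell lists. They included Ighm, Igkc, Trac and Trbc2, which had counts in only 1 of the library sets. The limit of 2 UMIs was also the same in the deeper cells of replicate 3. These shares, and the fits without such cells below, are therefore not like for like between libraries. The 10 stellate markers summed to 41.1, 148.2 and 3417 CPM in vehicle and 80.6, 2090.5 and 458 CPM in ginkgetin replicates 1 to 3. In the other sinusoidal cells they summed to 67.1, 385 and 252 CPM in vehicle and 127, 248 and 144 CPM in ginkgetin. Stellate RNA was thus unequal between the classes, higher in the pericentral cells of vehicle replicate 3 and ginkgetin replicates 2 and 3 and lower in the rest. The 10 hepatocyte markers summed to 179, 624 and 1925 CPM in vehicle and 31.3, 655 and 136 CPM in ginkgetin, and the 10 macrophage markers to 472, 346 and 197 CPM in vehicle and 67.2, 175 and 65.9 CPM in ginkgetin. Macrophage RNA was thus lower in all 3 ginkgetin libraries, without overlap, whereas the hepatocyte and stellate ranges overlapped.

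The selection on Wnt2 and Rspo3 can be seen from the cells on either side of the threshold, given as a description. The 1336 cells with 1 UMI had a median Kit level over the 6 libraries of 143 CPM and a median Cdh13 level of 58.2 CPM. The 477 cells with exactly 2 UMIs had 283 and 96.5 CPM, and the 747 cells with 3 or more had 372 and 202 CPM. The 5845 cells with 0 UMIs had 93.1 and 23.6 CPM. By these medians both genes were graded across the threshold, but not in every library. Kit stood at 547 CPM with 2 UMIs and 476 CPM with 3 or more in ginkgetin replicate 1. In vehicle replicate 3 Kit stood at 92.0 CPM with 0 UMIs and 79.7 CPM with 1. Cdh13 stood at 64.3 CPM with 1 UMI and 56.4 CPM with 2 in vehicle replicate 2.

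Wnt2 was the more widely held of the ligands. Of the 1224 cells, 848 held Wnt2 alone, 51 held Rspo3 alone and 325 held both. Rspo3 made up 57.8%, 46.7% and 37.7% of the summed Wnt2 and Rspo3 UMIs in vehicle replicates 1 to 3 and 45.4%, 31.3% and 17.6% in ginkgetin replicates 1 to 3. The ginkgetin value was the lower of the pair at each replicate number, while the ranges of the groups overlapped. Over all 8405 sinusoidal cells, which avoids the threshold of 2 UMIs, Wnt2 stood at 121, 162 and 62.9 CPM with vehicle and 205, 119 and 231 CPM with ginkgetin. Rspo3 stood at 120.1, 108 and 31.5 CPM with vehicle and 106, 42.6 and 46.7 CPM with ginkgetin. The groups overlapped for both ligands, and as the ligands chose the cells no test is given.

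The share of pericentral cells among gated endothelial cells was 10.9%, 10.7% and 14.2% in vehicle and 12.9%, 10.3% and 38.5% in ginkgetin replicates 1 to 3. The means were 11.95% ± 1.95 and 20.6% ± 15.6 (SD, n = 3), which did not differ beyond the spread (exact permutation test, two-sided, p = 0.7, where 3 against 3 cannot go below 0.1). Ginkgetin replicate 3 set the difference: without it the means were 11.95% and 11.6%. As a share of all cells after the filter, pericentral cells made up 2.06%, 1.68% and 1.11% in vehicle and 4.72%, 6.09% and 11.3% in ginkgetin replicates 1 to 3, without overlap (means 1.62% ± 0.477 and 7.37% ± 3.48, SD, n = 3, exact permutation p = 0.1). A cell with more UMIs passes a fixed threshold more easily. After each cell was thinned to 2000 UMIs and asked for at least 1 UMI of either ligand, the shares were 19.5%, 19.6% and 12.7% with vehicle and 32.0%, 21.4% and 32.5% with ginkgetin, without overlap (exact permutation p = 0.1, the smallest possible). Thinning left out 0 to 603 gated cells a library, those with under 2000 UMIs. Whether cells were recovered equally from each liver was not tested.

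**Figure D1:**
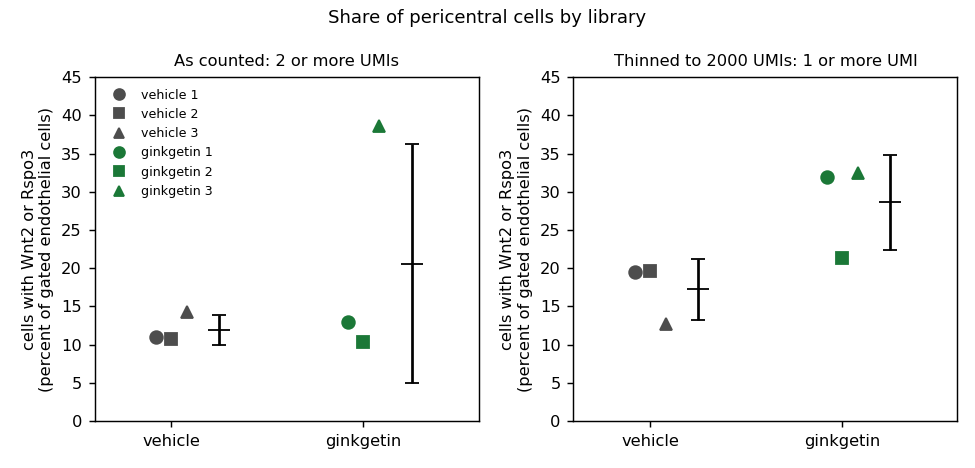
Share of pericentral cells among gated endothelial cells, in percent, for the 3 vehicle and 3 ginkgetin libraries, as counted (left) and after thinning to 2000 UMIs per cell (right). Symbols are libraries and the bar is mean ± SD; ginkgetin replicate 3 stands at 38.5% on the left, while on the right all 3 ginkgetin libraries lie above the vehicle libraries.

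Set against the other sinusoidal cells of the same library, the pericentral cells were higher for most pericentral genes and lower for most portal genes. Over 9053 genes tested, 93 (1.03%) were called higher and 205 (2.26%) lower (edgeR, adjusted p under 0.05 and a fold over 2). A gene could pass the filter on low counts through either class, and of the calls 70 of 93 higher and 38 of 205 lower passed it on the pericentral sums alone. A gene that is lower in the pericentral cells fails that filter more easily, so nothing is read from this split. The balance of calls moved with the setting, and nothing is read from it either. Higher and lower calls numbered 75 and 104 with DESeq2 and 51 and 59 with 250 to 5000 UMIs per cell. They numbered 51 and 55 without cells holding 2 or more UMIs of other cell types' markers. Without the filter on genes they were 206 and 711, and without vehicle replicate 3 they were 99 and 273. Of 9 pericentral list genes tested, Kit and Cdh13 among them, 7 were higher and 0 lower, with a median log2 difference of 1.75 against -0.01 over all genes. Of 12 portal list genes, 8 were lower and 0 higher, and 6 of these 8 passed the filter on the pericentral sums alone. These lists were chosen with earlier results of these data known. CPM values in this comparison are scaled over both classes together and so differ slightly from those of the comparison of treatments.

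Kit, a receptor tyrosine kinase, and Cdh13, T-cadherin, were named as markers of these cells, so their values are a description. Kit stood at 394, 307 and 159 CPM with vehicle and 534, 355 and 349 CPM with ginkgetin in the pericentral cells, and 123, 109 and 83.7, then 143, 68.4 and 41.2 CPM in the other sinusoidal cells. Cdh13 stood at 218, 157 and 100.2 CPM with vehicle and 219.7, 163 and 197 CPM with ginkgetin in the pericentral cells, and 50.6, 45.1 and 16.4, then 23.8, 28.1 and 19.1 CPM in the other sinusoidal cells. Each gene was higher in the pericentral cells of all 6 libraries, with log2 differences of 2.0 and 2.68, and vehicle replicate 3 had the lowest pericentral level of both. Among the other list genes, Thbd, the thrombin receptor thrombomodulin, was higher, at 327 ± 153 against 103 ± 49.9 CPM (mean ± SD, n = 6, log2 difference 1.64, SE 0.11, adjusted p = 6.1e-08). Ptgs1, a cyclooxygenase, was higher likewise (309 ± 65.1 against 93.8 ± 21.3 CPM, log2 difference 1.75, SE 0.10, adjusted p = 3.4e-08). Selp, Dkk3 and Rab3b were also higher, by log2 1.83, 1.75 and 1.80.

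Outside that list, Plppr5 had a log2 difference of 3.66, Ltc4s, a leukotriene synthase, of 2.17, and Jup, plakoglobin, of 2.09. Of the angiocrine ligands, 3 of 15 tested were higher and 4 lower, and 0 of these 4 passed the filter on the pericentral sums alone. Gas6, a ligand of TAM receptors, was higher (341 ± 189.5 against 137 ± 71.2 CPM, log2 difference 1.33, SE 0.10, adjusted p = 2.7e-07), and so were Dkk3 and Cxcl12. Cxcl12 was uneven, since it stood at 153 and 202 CPM in vehicle replicate 3 and ginkgetin replicate 2 and at 28.2 CPM or less in the rest. These are the libraries with the most stellate RNA, and Ecm1, also higher, belongs to the stellate markers. The part of stellate RNA in both was not tested. Of 17 Wnt pathway genes, Dkk3, of the dickkopf family, and Nkd1, a feedback inhibitor of Wnt signalling, were higher and 0 were lower.

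On the portal side, Efnb2 fell to 49.6 ± 16.2 against 161 ± 58.8 CPM (log2 difference -1.69, SE 0.13, adjusted p = 2.7e-07) and the Notch ligand Dll4 to 64.9 ± 18.1 against 182 ± 58.4 CPM (log2 difference -1.39, SE 0.13, adjusted p = 2.3e-06). Jag1, Efnb1, Ntn4 and the scavenger receptor Msr1 were lower as well, by log2 values from -1.36 to -1.81. The gap junction gene Gja5 and the adhesion receptor Adgrg6 did not pass the filter in the pericentral cells and are given as values. Adgrg6 stood at 5.39, 0 and 8.72 CPM with vehicle and 2.31, 14.5 and 6.03 CPM with ginkgetin in the pericentral cells, and 88.5, 74.4 and 105, then 54.2, 81.3 and 152 CPM in the other sinusoidal cells. The endothelin receptor Ednrb (-1.85) was lower too. Of 25 sinusoidal identity genes, 0 were called in either direction.

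**Figure D2:**
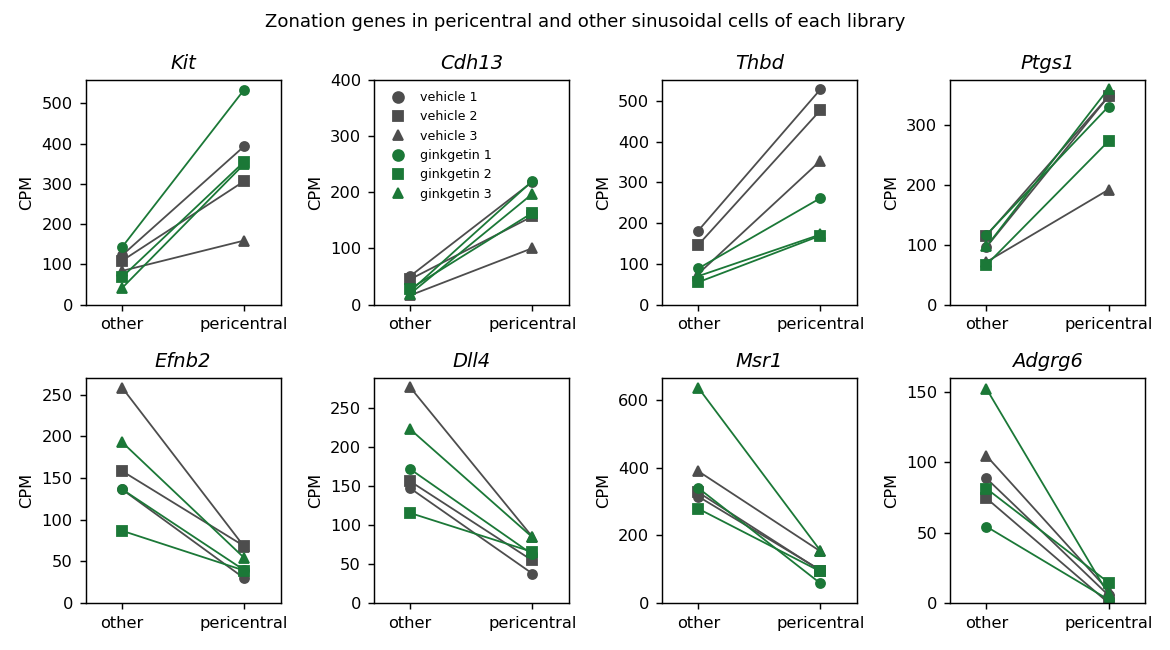
CPM of 4 pericentral genes (top) and 4 portal genes (bottom) in other sinusoidal and pericentral cells, with a line joining the values of each of the 6 libraries. Every line climbs in the top row and drops in the bottom row.

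With ginkgetin, the pericentral cells had 13 genes lower and 0 higher than with vehicle, among 5929 tested (0.219% called lower). All 13 had groups that did not overlap, which selection by the test favours. The share of all tested genes without overlap is not given, so this is a description only. They include the cholesterol exporter Abca1, the activin subunit Inhbb, the polyamine synthesis enzyme Odc1, the G-protein regulator Rgs2 and the cAMP-responsive factor Crem. The number moved with the libraries used: without any single library 0 genes were called, while 451 to 967 had an unadjusted p under 0.05, against 572 in the full fit. Replicates 1 and 2 alone, 4 libraries, gave 117 calls, 46 higher and 71 lower, with 12 of them among the 13. DESeq2 called 68 genes, among them the same 13. The cells thinned to 2000 UMIs gave 0 calls, with 436 genes at an unadjusted p under 0.05.

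Abca1 stood at 251, 190.1 and 270.1 CPM in vehicle replicates 1 to 3 and 4.81, 28.5 and 34.5 CPM in ginkgetin replicates 1 to 3. The lowest vehicle library was over 5 times the highest ginkgetin library (log2 fold change -3.22, SE 0.46, adjusted p = 0.0449). Inhbb stood at 232, 197 and 228 CPM with vehicle and 33.7, 13.8 and 34.8 CPM with ginkgetin (log2 fold change -3.01, SE 0.36, adjusted p = 0.0449). Odc1 stood at 113, 139 and 186 CPM with vehicle and 28.9, 43.1 and 25.2 CPM with ginkgetin (log2 fold change -2.18, SE 0.31, adjusted p = 0.0449).

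Tmem176a, a membrane protein, stood at 494, 424 and 469.8 CPM with vehicle and 132, 159.5 and 106 CPM with ginkgetin (log2 fold change -1.81, SE 0.26, adjusted p = 0.0449). Tsc22d1, a leucine zipper regulator, stood at 421, 409 and 373 CPM with vehicle and 137, 124 and 100.1 CPM with ginkgetin (log2 fold change -1.75, SE 0.24, adjusted p = 0.0449). Mest, an imprinted gene, stood at 147, 263 and 164 CPM with vehicle and 43.3, 52.9 and 41.7 CPM with ginkgetin (log2 fold change -2.01, SE 0.28, adjusted p = 0.0449). In none of these genes did a vehicle library reach down to a ginkgetin library.

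Rgs2, Crem and Armcx4 fell, with log2 changes of -2.49, -2.17 and -3.14. Ankrd37, Clca3a1, Plagl1 and Gpm6a had larger fitted changes, of -4.41, -4.08, -3.52 and -3.81, on few UMIs. Gpm6a rested on 21, 4 and 15 UMIs with vehicle and 3, 4 and 8 with ginkgetin. In the other sinusoidal cells of the same libraries the log2 changes of Abca1, Inhbb, Odc1 and Mest were -2.61, -2.05, -2.16 and -2.35, and of the 13 genes only Clca3a1 had a change that differed between the classes, by -2.01 (SE 0.43, adjusted p = 0.0268) in the test of the difference described at the end.

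**Figure D3:**
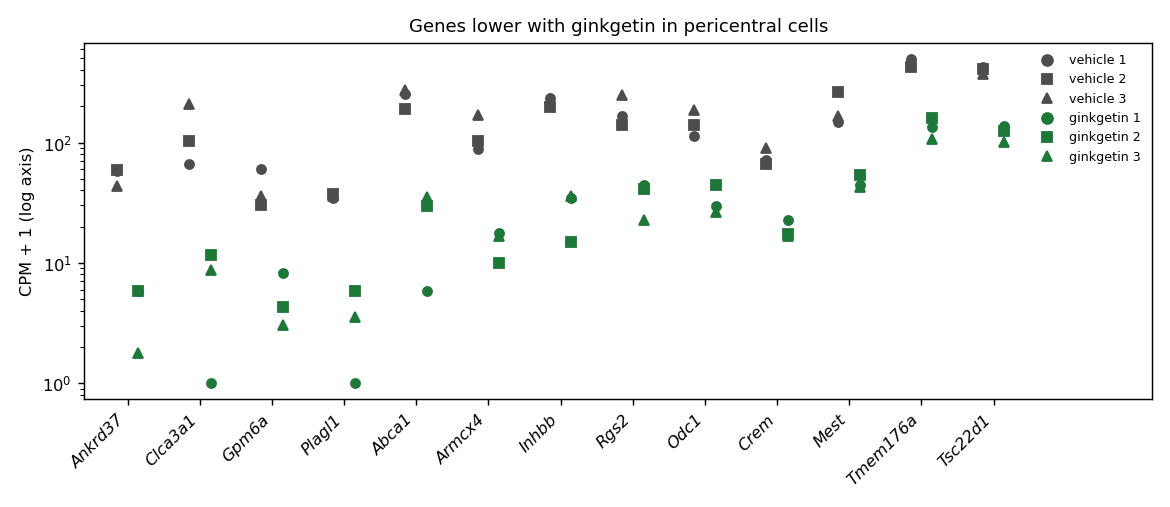
CPM + 1 on a log axis of the 13 genes called lower with ginkgetin in pericentral cells, for each library. Every vehicle library lies above every ginkgetin library.

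The planned main fit had no block. Deviations of same-numbered vehicle and ginkgetin libraries correlated, but vehicle replicate 2 correlated more with ginkgetin replicate 1 (0.42) than with ginkgetin replicate 2 (0.30). The correlations thus set replicate 3 apart and do not show separate pairs for the rest. With the replicate number as a block, an alternative fit, 149 genes were called, 51 higher (0.86%) and 98 lower (1.65%), including the 13. The lists below are described with that block, which shares its libraries with the fit above. Apart from Abca1, Inhbb and Gpm6a, the list genes named as higher or lower with the block were not called without it, with adjusted p values from 0.0619 for Gas6 to 0.436 for Icam1. Of 17 lipid handling genes tested, 4 were lower. Fabp4, a fatty acid carrier, stood at 11116, 9884 and 4104 CPM with vehicle and 2522, 1646 and 859 CPM with ginkgetin, with a blocked log2 change of -2.33 (SE 0.16, adjusted p = 0.00054) and an adjusted p of 0.178 without the block. Its relative Fabp5 stood at 1438, 1016 and 733 CPM with vehicle and 303, 281 and 161 CPM with ginkgetin and changed by -2.10 (SE 0.16, adjusted p = 0.00082). Cd36, the fatty acid translocase, stood at 1119, 1082 and 1339 CPM with vehicle and 193, 209 and 416 CPM with ginkgetin and changed by -2.17 (SE 0.20, adjusted p = 0.00104). In the other sinusoidal cells, without the block, Fabp4, Fabp5 and Cd36 changed by -3.15, -2.02 and -1.20. Of these, only Cd36 had a change that differed between the classes.

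Abca1 was the other lipid gene that fell. Insig1, a brake on cholesterol synthesis, rose with the block. Insig1 stood at 11.3, 29.2 and 9.4 CPM with vehicle and 50.5, 116 and 45.8 CPM with ginkgetin and changed by 2.14 (SE 0.32, adjusted p = 0.00982). Its vehicle values rest on 4 UMIs in each library.

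Of 24 sinusoidal identity genes, 2 were higher and 3 lower with the block. Ehd3, an endocytic recycling protein, stood at 1212, 1711 and 1196 CPM with vehicle and 3920.3, 3856 and 3773 CPM with ginkgetin and changed by 1.51 (SE 0.16, adjusted p = 0.0019). The tight junction gene Cldn5 stood at 311, 409 and 451 CPM with vehicle and 821, 889 and 983 CPM with ginkgetin and changed by 1.21 (SE 0.15, adjusted p = 0.00597). Lyve1, a hyaluronan receptor, stood at 503, 541 and 1083 CPM with vehicle and 144, 109 and 204 CPM with ginkgetin and changed by -2.19 (SE 0.18, adjusted p = 0.00087). In the other sinusoidal cells, without the block, Ehd3, Cldn5 and Lyve1 changed by 1.28, 0.29 and -2.10. Of these, only Cldn5 had a change that differed between the classes. Il33, an alarmin, and Gpm6a were the other genes that fell, with blocked log2 changes of -2.85 and -3.56.

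Of the 10 pericentral list genes, 0 were called without the block, and Fabp4, Selp and Thbd were lower with it. Thbd stood at 554, 512 and 381 CPM with vehicle and 272, 181 and 184 CPM with ginkgetin and changed by -1.18 (SE 0.17, adjusted p = 0.00783). Kit stood at 412, 329 and 171 CPM with vehicle and 556, 379 and 373 CPM with ginkgetin with a blocked change of 0.60 (SE 0.20, adjusted p = 0.137), and Cdh13 at 229, 168 and 108 CPM with vehicle and 229, 174 and 210.1 CPM with ginkgetin with 0.36 (SE 0.23, adjusted p = 0.428); the groups of both overlapped. The 11 angiocrine ligands tested had 2 higher and 1 lower. Gas6 stood at 206, 175 and 169 CPM with vehicle and 551, 465 and 600.1 CPM with ginkgetin and changed by 1.57 (SE 0.18, adjusted p = 0.0027). Its change in the other sinusoidal cells, without the block, was 1.42, and no difference between the classes was called. Csf1, a macrophage growth factor, changed by 1.37 (SE 0.23, adjusted p = 0.0172), and Inhbb was the ligand that fell.

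Of 16 Wnt pathway genes, only the co-receptor Lrp6 was called, higher at 50.8, 73.1 and 132 CPM with vehicle and 231, 177 and 249 CPM with ginkgetin with a blocked change of 1.39 (SE 0.26, adjusted p = 0.0224). Ctnnb1, the highest gene of the list, was at 418 ± 44.7 against 408 ± 26.3 CPM (mean ± SD, n = 3). Of 21 VEGF, TIE, BMP and Notch genes, only the co-receptor Nrp1 was called, with a blocked change of 1.01 (SE 0.16, adjusted p = 0.0113). Of 14 capillarization and basement membrane genes, 0 were called and 12 had a lower value, with a median log2 change of -0.31. Sparc, the highest of these, stood at 1610.2, 1959 and 2107 CPM with vehicle and 1223, 1239.6 and 1365 CPM with ginkgetin (blocked adjusted p = 0.0547).

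Of 17 interferon-stimulated genes, Irf7, Ifi27l2a and Rtp4 were lower with the block and 0 higher, with a median of -0.82 against -0.02 over all genes. Of 19 adhesion and inflammatory genes, Icam1, Selp, Cxcl9 and Il1r1 were lower and 0 higher. Il1r1 stood at 133, 102 and 113 CPM with vehicle and 52.9, 42.3 and 35 CPM with ginkgetin, whereas the groups of Icam1 and Cxcl9 overlapped. Of 13 antigen presentation genes, Ctss, a lysosomal protease abundant in macrophages, was lower. The summed macrophage markers were lower in the same 3 libraries (above), and their part in these changes was not tested. Of 11 cell cycle genes, Birc5, Cenpf and the inhibitor Cdkn1a were lower and Ccnd1 higher. Of 21 scavenger genes, Lyve1 and Cd63 were lower and Ehd3 higher. Of 14 flow genes, Thbd was lower and P2ry1, an ADP receptor, higher. Outside the lists, Tiam1, an activator of the GTPase Rac, stood at 8.47, 0 and 37.6 CPM with vehicle and 93.9, 108 and 111 CPM with ginkgetin and changed by 2.43 (SE 0.45, adjusted p = 0.0229). Mcc, Cntfr and Cd84 also rose, with blocked changes of 2.04, 1.81 and 1.74, and the protease gene Adamts4 fell, at -3.50. Without the block these 5 genes were not called, with adjusted p values from 0.0531 for Mcc to 0.181 for Cd84.

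**Figure D4:**
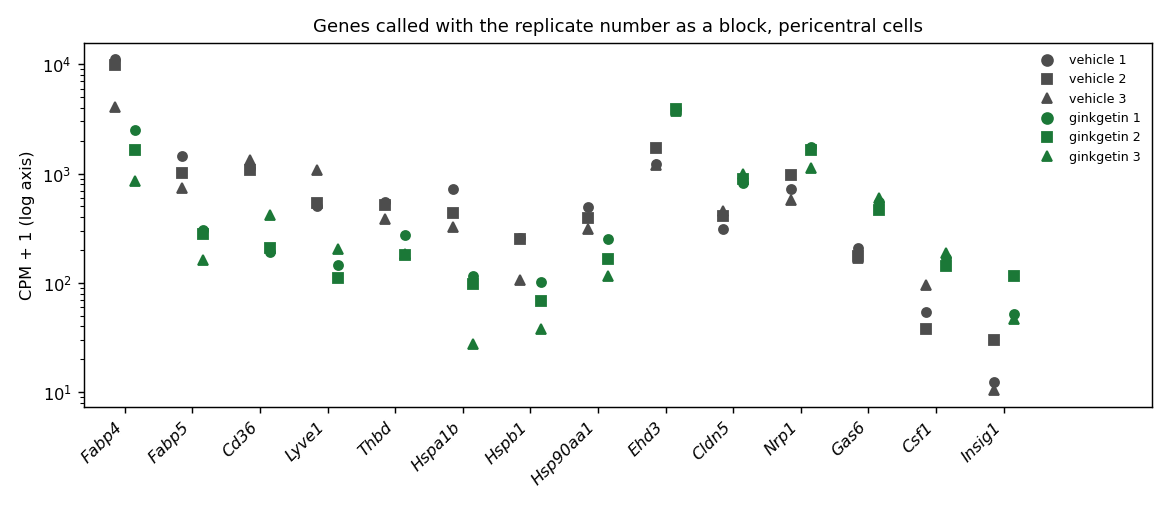
CPM + 1 on a log axis of 14 genes called with the replicate number as a block, for each library. Fabp4 to Hsp90aa1 are lower and Ehd3 to Insig1 higher with ginkgetin, and the groups of each gene do not overlap.

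Of 23 immediate-early and heat shock genes, 4 heat shock genes were lower with the block and 0 higher, and 19 were not called, 9 of the 23 having a positive log2 change. Without the block 0 of the 23 were called. Hsp90aa1, a cytosolic chaperone, stood at 497, 395 and 308 CPM with vehicle and 250.3, 165 and 115 CPM with ginkgetin and changed by -1.23 (SE 0.17, adjusted p = 0.00661). Hspb1, a small heat shock protein, stood at 257, 249 and 106 CPM with vehicle and 101, 66.7 and 37.1 CPM with ginkgetin and changed by -1.57 (SE 0.19, adjusted p = 0.00449). Hspa1a and Hspa1b encode near-identical HSP70 proteins, so reads may have been divided between them, and each value is uncertain. Hspa1b stood at 715, 431 and 327 CPM with vehicle and 116, 96.9 and 26.8 CPM with ginkgetin and changed by -2.82 (SE 0.27, adjusted p = 0.0011). Hspa1a stood at 706, 512 and 308 CPM with vehicle and 166, 114 and 33.5 CPM with ginkgetin and changed by -2.50 (SE 0.24, adjusted p = 0.0011). In the other sinusoidal cells, without the block, Hspa1b, Hspa1a, Hspb1 and Hsp90aa1 changed by -3.03, -2.60, -2.12 and -0.63. None of these changes was called there, and none differed between the classes.

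The stretches before the start sites of Hspa1a, Hspa1b and Hspb1 are shown because these genes were called lower. They are 3 of the 4 called heat shock genes, and Hsp90aa1 had no entry. They come from RefSeq, build GRCm38.p6, at chr17:34972218-34972295, strand minus, chr17:34959300-34959377, strand minus, and chr5:135887767-135887864, strand plus, and capitals mark GAANNTTC, the core of a heat shock element, which reads the same on both strands.
Hspa1a: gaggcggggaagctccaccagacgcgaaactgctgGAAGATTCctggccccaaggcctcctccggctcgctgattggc
Hspa1b: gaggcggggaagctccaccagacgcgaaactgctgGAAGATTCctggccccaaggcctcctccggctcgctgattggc
Hspb1: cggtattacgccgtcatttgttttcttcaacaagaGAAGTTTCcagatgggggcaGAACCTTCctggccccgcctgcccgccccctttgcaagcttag
The match lies 104 bases before the start in Hspa1a and Hspa1b, and at 117 and 97 bases in Hspb1. The Hspa1a and Hspa1b stretches are the same over all 78 bases. The motif occurred in the 250 bases before 2199 of 32851 promoters (6.69%), and in 2 of 5 other heat shock genes with an entry, Dnaja1 and Hspe1. It was 1 of 8 motifs searched, all after the gene values had been seen. The longer heat shock element of 3 units, searched in 2 forms, matched 0 of the 3 printed genes. The direct-repeat element of LXR, a cholesterol sensor, also in 2 forms, and the sterol element forms TCACNCCAC and CACCCCAC matched neither Abca1 nor Insig1. GGGCGG was found in all 3 printed genes and in 32.7% of promoters. A match describes the letters in this window.

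The ginkgetin difference was then compared between the pericentral and the other sinusoidal cells of the same libraries. Among 9053 genes, 10 (0.11%) had a more positive and 58 (0.641%) a more negative log2 change in the pericentral cells (edgeR, adjusted p under 0.05, no fold limit). Of these, 7 and 30 passed the filter on the pericentral sums alone. Selp, the adhesion molecule P-selectin, had a more negative change in the other sinusoidal cells, with a difference of 2.38 (SE 0.40, adjusted p = 0.00327). Cldn5 had a difference of 0.94 (SE 0.17, adjusted p = 0.0077) and Lrp6 of 0.93 (SE 0.21, adjusted p = 0.0436), both more positive in the pericentral cells. Cd36 had -0.86 (SE 0.17, adjusted p = 0.0194) and Il33 -2.40 (SE 0.51, adjusted p = 0.0268), both more negative there. Of 11 cell cycle genes that passed the filter in the pericentral cells, Birc5 and Cenpf were more negative and 0 more positive.

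Of 13 antigen presentation genes that passed the filter in the pericentral cells, 5 were more negative. H2-Eb1, a class II chain, stood at 237, 102 and 113 CPM with vehicle and 27.8, 102 and 10.4 CPM with ginkgetin in the pericentral cells. In the other sinusoidal cells it stood at 179, 109 and 55.3 CPM with vehicle and 184, 993 and 81.4 CPM with ginkgetin, a difference of -3.62 (SE 0.25, adjusted p = 4.8e-08). Cd74, the class II invariant chain, had -3.66 (SE 0.32, adjusted p = 1.2e-06). In the other sinusoidal cells the B or plasma cell markers summed to 444, 49.1 and 45.6 CPM with vehicle and 137, 8804 and 677 CPM with ginkgetin, against 30.5 to 882 CPM in all pericentral libraries. Without cells holding 2 or more UMIs of other cell types' markers, 27 genes were called and 7 of these were among the 68. The differences then were -0.018 for Cd74, -0.29 for H2-Eb1 and 0.15 for H2-Aa, none of them called. Il33, at -2.46 (adjusted p = 0.0736), was about as large as before but not called. Lrp6, at 0.70, and Selp, at 0.95, were smaller and not called, while Cldn5 (0.76) and Cd36 (-0.89) were called.

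**Figure D5:**
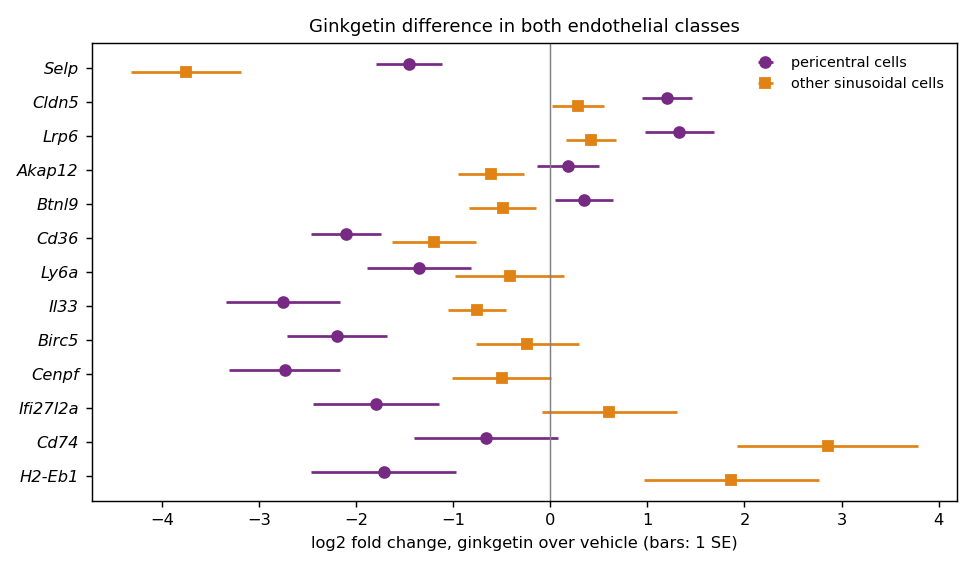
Log2 fold change of ginkgetin over vehicle with 1 SE for 13 genes whose change differed between the classes, in pericentral cells (circles) and other sinusoidal cells (squares). Cd74 and H2-Eb1 lie on opposite sides of 0, while Selp, Cd36 and Il33 lie below 0 in both.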

How the data were processed

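Liver non-parenchymal cells from 3 vehicle and 3 ginkgetin libraries were profiled on the 10X Genomics system according to the study's methods and the sample descriptions, while the labels' extract protocol names a total RNA kit and a SMARTER library kit. The conflict could not be settled, and the values are treated as UMI counts. The deposited values are raw UMI counts per gene and cell, made by the authors with build GRCm38 (mm10) according to the submitters' processing notes; aligner and annotation are not given in the sources used here. The authors kept cells of 250 to 5000 UMIs and under 5% mitochondrial UMIs. The same mitochondrial limit was used here, with under 5000 genes in place of the UMI range. The 19349 symbols came from different annotation versions for replicates 1 and 2 and for replicate 3, so 305 older and newer symbols were joined. The 858 found in only 1 set were left out of the summed counts (0.50 to 2.57% of UMIs), but not of the per-cell limit on other cell types' markers. No doublet caller was run.

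Counts were summed per library and class and fitted with edgeR 4.0.16 (quasi-likelihood, TMM, filterByExpr, Benjamini-Hochberg) in R 4.3.3, with DESeq2 1.42.0 as an alternative. Genes were called at adjusted p under 0.05 and a fold over 2, and genes of the selection were not tested. CPM are scaled by TMM except for marker sums. Fits were tested on simulated data. Deviations of same-numbered vehicle and ginkgetin libraries correlated at 0.54, 0.30 and 0.74, and the numbers were used as a block. Replicates 1 and 2 also correlated across numbers (0.42 and 0.24), so separate pairs for them are not shown. The labels name no shared mouse or day. P-values measure the spread between these libraries. Named genes were Kit and Cdh13, list members called or highest in level, and the 10 largest rises and falls of 50 CPM or more without overlap. Members and lists were chosen with earlier results of these data known; list genes called with the block, and its largest rises and falls, were named after their values were seen. One gene of the lipid handling list is not reported here.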

Additional observations from a re-analysis of the deposited data

Results flagged for a closer look

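The ginkgetin change differed between pericentral and other sinusoidal cells for 68 genes by the test of the difference itself. More positive in the pericentral cells were Selp (2.38), Ctla2a (0.96), Cldn5 (0.94), Lrp6 (0.93), Akap12 (0.92) and Btnl9 (0.866), as differences of log2 changes. More negative were the antigen presentation genes Cd74 (-3.66), H2-Eb1 (-3.62), H2-Ab1 (-2.76), H2-Aa (-2.72) and Ctss (-2.08). The leukocyte genes Cd52 (-3.13), Laptm5 (-2.62), Rac2 (-2.52) and Pycard (-2.38) were more negative too. So were the cell cycle genes Cenpf (-2.49) and Birc5 (-1.99). The others were Spp1 (-2.65), Ifi27l2a (-2.55), Il33 (-2.40), Clca3a1 (-2.01), Ly6a (-0.95) and Cd36 (-0.86). Kcnj8 (3.25), Mki67 (-2.76), Edn1 (-2.80) and H2-DMa (-2.82) did not pass the filter on low counts in the pericentral cells and entered through the other sinusoidal cells, so their change in the pericentral cells was not measured well enough to compare. Without cells holding 2 or more UMIs of other cell types' markers, 27 genes were called, 7 of them among the 68. Cd52 then turned to 0.077 and H2-Aa to 0.15, Cd74 was -0.018, and the other leukocyte and antigen presentation genes named here with a value in that fit were not called. Spp1 (-0.71), Ifi27l2a (-1.33), Akap12 (0.64), Btnl9 (0.59), Il33, Selp and Lrp6 were not called either. Ctla2a (0.75), Cldn5, Ly6a (-1.22) and Cd36 were called, while Birc5 and Cenpf had no value in that fit. B or plasma cell markers in the other sinusoidal cells were highest in ginkgetin replicate 2, and their part was not tested.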

How the results depend on the processing

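For the pericentral cells, 13 genes were called. DESeq2's Wald test gave 68, no filter on genes 104, the barcode-set block 195, the replicate block 149, replicates 1 and 2 alone 117, 250 to 5000 UMIs per cell 43 (vehicle replicate 3 dropped, with under 10 cells), and a Wnt2 and Rspo3 sum of 1 or more 22 and of 3 or more 4. Without cells with other markers 10 were called (2 higher and 8 lower), 8 of them among the 13. Thinning gave 0, and leaving out each library 0 to 0. Alternatives added after seeing the data, each with the replicate block, gave 113 (UMI range), 124 and 128 (sum of 1 or more and of 3 or more), 103 (thinned) and 152 (without cells with other markers).
Against the other sinusoidal cells, the 298 calls became 110 with the UMI range, 179 with DESeq2, 134 thinned, 917 without the filter and 106 without cells with other markers, and 187 to 372 leaving out each library. The 68 differences between classes became 26 thinned, 185 without the filter, 32 with replicates 1 and 2 alone and 27 without cells with other markers (the last pair added), and 25 to 88 leaving out each library.
The 9 calls in the other sinusoidal cells became 170 with DESeq2, 87 with the barcode-set block, 27 without the filter, 88 with the replicate block, 5 with replicates 1 and 2 alone (added), and 0 to 14 leaving out each library. The 17 over all sinusoidal cells became 205, 119, 38, 55 and 0 under the same settings, and 0 to 8.
The share difference of 8.64 percentage points ranged from -0.33 to 13.8 leaving out each library, the lowest without ginkgetin replicate 3. It was 4.46 with 250 to 5000 UMIs per cell (without overlap, exact permutation p = 0.1), 12.4 and 5.88 with a sum of 1 or more and of 3 or more, 11.4 thinned, 0.792 in replicates 1 and 2 alone and 24.3 in replicate 3 alone. With the UMI range, vehicle replicate 3 kept only 4 pericentral cells among 48 gated cells. The nearest libraries of the groups were then close, at 11.1% in vehicle replicate 2 and 11.3% in ginkgetin replicate 2.
Called differences between classes turned sign: without cells with other markers, Cd52 went from -3.13 to 0.077 and H2-Aa from -2.72 to 0.15. The other sign changes were in genes that were not called. With the UMI range, Cdh13 went to -0.018 and Sox18 to -0.36. With the block as well, Cdh13 was -0.030, Sox18 -0.18 and Ctnnb1 0.057. With replicates 1 and 2 alone, Cdh13 was -0.055 and Sox18 -0.23. With a sum of 1 or more, Sox18 was -0.039, and -0.038 with the block. Ctnnb1 was 0.050 thinned, 0.057 thinned with the block, 0.059 without the filter, 0.090 without cells with other markers and 0.089 with the block too. Cdh5 was 0.052 without the filter. With replicate 3 alone, Cdh5 was 0.089, B2m 0.20 and Id3 0.46. Leaving out each library, Cdh5 ranged from -0.086 to 0.0098, Ctnnb1 ranged from -0.098 to 0.045 and Sox18 ranged from -0.065 to 0.24. The causes were not tested.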
